A study of Mus musculus with 6 samples.

Results

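Annexins are cytosolic proteins that bind acidic phospholipids, such as phosphatidylserine, when calcium rises. Their conserved core of annexin repeats attaches to the membrane, and their variable N-terminal tail carries the binding sites for partners such as S100 proteins. In the growth plate they are known from matrix vesicles, the small particles that hypertrophic chondrocytes release and in which mineral first forms. Anxa2, Anxa5 and Anxa6 are the members most often described there. The genes were chosen by symbol: Anxa1, Anxa2, Anxa3, Anxa4, Anxa5, Anxa6, Anxa7, Anxa8 and Anxa11, 9 of the 15803 genes in the table, and all 9 were found.

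RNA of growth plate cartilage from mouse embryos at E18.5 was sequenced in 6 libraries. The 3 libraries labelled WT were from Hnrnpk fl/fl embryos, whose Hnrnpk alleles carry loxP sites. The 3 libraries labelled CKO were from embryos with the same floxed alleles and the Col2a1-Cre transgene. Hnrnpk encodes an RNA-binding protein, and Cre under the Col2a1 promoter acts in chondrocytes and their descendants but not in every cell of the dissected tissue. The comparison of CKO with WT asks what changes in the cartilage when the gene is deleted in chondrocytes. The values are reads on a gene scaled to a common library total (CPM), and 1 read was worth 0.688 to 0.867 CPM, since the libraries held between 1153871 and 1454094 reads. The labels do not say whether each library came from a separate embryo, so p-values measure the spread between these libraries, which may be technical.

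The targeted gene did not separate the labels. Hnrnpk stood at 842, 955 and 944 CPM in WT 1, 2 and 3, against 759, 949.9 and 780.0 CPM in CKO 1, 2 and 3. The groups overlapped, with CKO 2 inside the WT range, and the log2 fold change was -0.14 (SE 0.15, limma's adjusted p = 0.622). The value covers the whole gene, so reads on undeleted exons and in cells without Cre are counted as well. Every direction given here therefore rests on the genotype labels. Of 10 chondrocyte markers 8 fell, and their summed level was 18264 to 25466 CPM in WT and 4993 to 6426 CPM in CKO. In bulk tissue, fewer cells of a type and less RNA per cell cannot be told apart, here and for the annexins. Collagen II (Col2a1) and aggrecan (Acan), defining genes of cartilage, were detected in all 6 libraries.

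Of the 9 annexin genes, 5 were higher in the CKO libraries at an adjusted p under 0.05 and 0 were lower (limma on log2(CPM + 1), Benjamini-Hochberg over 12155 genes). The genes that rose were Anxa1, Anxa3 and Anxa8, each by more than 3-fold, and Anxa2 and Anxa7, each by less than 2-fold. Over all genes tested, 387 were higher (3.18%) and 316 were lower (2.60%), 5.78% in both directions. Anxa4, Anxa5, Anxa6 and Anxa11 did not pass. At an unadjusted p under 0.05 the lower count was 1, Anxa6. Among all genes tested, 1886 had such a p in addition to the 703 past the adjusted threshold. Both edgeR and DESeq2 on the recovered reads called 5 annexins higher and 0 lower. For all genes, edgeR called 374 higher and 363 lower of 7704. DESeq2 called 344 higher and 305 lower of the 15793 with a p-value. These include any that its default filter left without an adjusted p. By the criterion of the study, a log2 fold change past 1 in either direction with an unadjusted p under 0.05, 3 annexins were higher, against 5.30% of all genes higher and 10.4% in both directions. The median log2 fold change was 0.91 over the 9 annexins and 0.013 over all genes tested. The members were chosen with earlier results of these data known, so their shares beside those of all genes are a description. The background count depends on single libraries. It was 137 higher and 81 lower without WT 1, 133 and 79 without WT 2, 322 and 221 without WT 3, 133 and 125 without CKO 1, 692 and 606 without CKO 2, and 123 and 108 without CKO 3, while the annexin count was 4 or 5 in each of these fits.

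**Figure D1:**
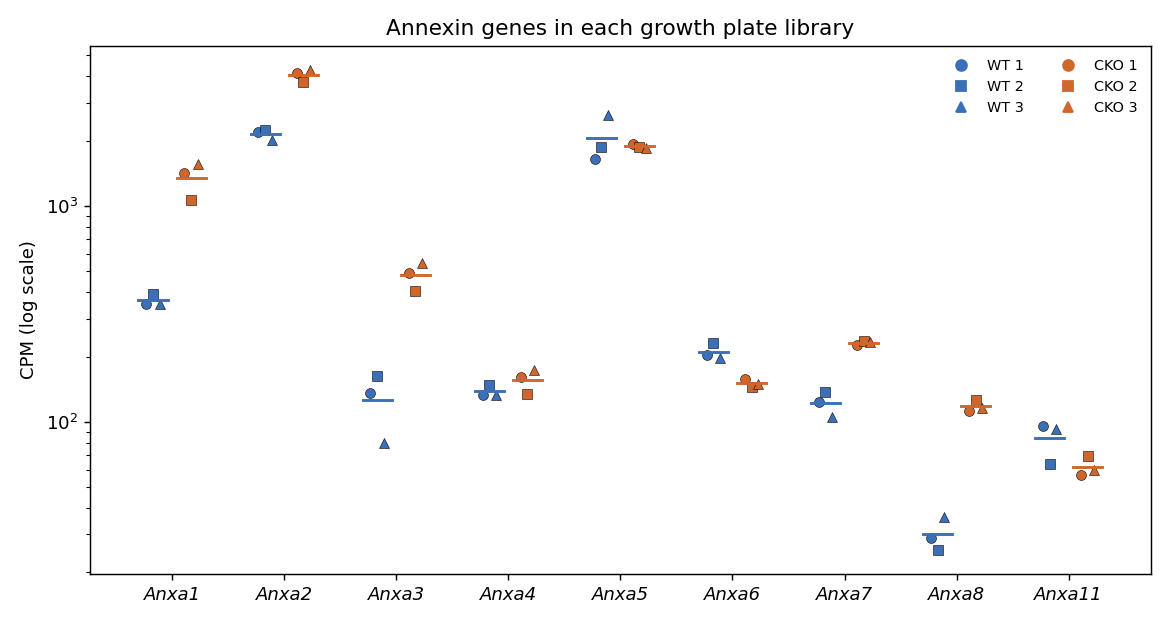
Level of each of the 9 annexin genes in CPM (log axis) in each library, with WT and CKO as separate groups of 3 points and a bar at each mean. The groups do not overlap for Anxa1, Anxa2, Anxa3, Anxa6, Anxa7 and Anxa8.

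The promoter sequences are shown first for 3 genes that rose and for Anxa5, an abundant member that did not pass, so that genes with and without a change can be read side by side. Each sequence holds the 250 bases before the transcription start given by RefSeq (GRCm38.p6), read in the direction of the gene. Capitals mark matches on either strand to the letters TATAAA of the core promoter box, TGANTCA of the AP-1 site, GGGCGG of the Sp1 box, ACGTG of the hypoxia response element or GGAATG of the TEAD site. The positions are chr19:20390672-20390921 on the minus strand for Anxa1, chr9:69453433-69453682 on the plus strand for Anxa2, chr14:34085729-34085978 on the plus strand for Anxa8 and chr3:36475888-36476137 on the minus strand for Anxa5.
Anxa1: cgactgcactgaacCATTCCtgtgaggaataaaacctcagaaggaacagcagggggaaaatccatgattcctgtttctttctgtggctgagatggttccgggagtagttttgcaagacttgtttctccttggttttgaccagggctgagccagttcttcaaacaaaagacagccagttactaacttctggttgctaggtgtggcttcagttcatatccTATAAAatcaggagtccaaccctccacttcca
Anxa2: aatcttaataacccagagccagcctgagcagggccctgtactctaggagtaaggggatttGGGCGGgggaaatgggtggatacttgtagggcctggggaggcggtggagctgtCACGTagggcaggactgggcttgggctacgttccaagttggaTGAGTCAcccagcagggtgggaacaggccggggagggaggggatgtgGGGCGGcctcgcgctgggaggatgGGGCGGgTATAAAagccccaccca
Anxa8: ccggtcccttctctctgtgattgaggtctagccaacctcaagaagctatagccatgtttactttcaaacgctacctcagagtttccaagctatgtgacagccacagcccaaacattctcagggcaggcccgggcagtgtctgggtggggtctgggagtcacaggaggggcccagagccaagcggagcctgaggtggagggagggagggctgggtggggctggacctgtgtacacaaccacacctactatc
Anxa5: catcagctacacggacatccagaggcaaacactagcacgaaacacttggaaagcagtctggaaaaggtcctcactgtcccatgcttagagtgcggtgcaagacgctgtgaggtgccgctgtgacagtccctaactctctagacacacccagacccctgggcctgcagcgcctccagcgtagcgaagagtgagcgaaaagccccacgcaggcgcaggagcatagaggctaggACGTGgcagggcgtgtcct

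The 4 upstream sequences have little in common in these letters. The letters TATAAA begin 32 bases before the RefSeq start of Anxa1 and 17 bases before that of Anxa2. They occur in 13.6% of 32817 RefSeq windows of 300 bases. The GENCODE bounds of Anxa1, Anxa2 and Anxa5, given below, begin further upstream, so distances to the start hold for the RefSeq starts only. For Anxa1 the bound at 20390944 lies beyond the printed sequence, which ends at 20390921 and thus lies inside the annotated gene. Anxa1 also holds CATTCC, the TEAD letters on the other strand, 236 bases before the start (14.7% of windows). Anxa2 holds an AP-1 match, TGAGTCA, 95 bases before the start (7.81%), 3 GC boxes (35.6%) and a hypoxia core (19.6%). Anxa5 holds 1 hypoxia core, 19 bases before the start, and Anxa8 holds none of the motifs. Windows were held for 7 of the 9 genes, with 250 bases before and 50 after the start, and none for Anxa3 and Anxa6. Over these windows the TATA box was found in 2 genes, AP-1 in 1, the GC box in 4, the hypoxia core in 3 and TEAD in 1. No motif was shared by all of the windowed genes that rose. A match describes letters and does not show a bound site.

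Anxa1, which binds S100a11 and signals through formyl peptide receptors once outside the cell, had the smallest p-value of the annexins. It was measured at 352, 392 and 352 CPM in the WT libraries and at 1421, 1065 and 1569 CPM in the CKO libraries. All CKO libraries lay far above all WT libraries, with CKO 2 the lowest of the 3. The rise was 3.65-fold (95% interval 2.82 to 4.73), a log2 fold change of 1.87 (SE 0.17, limma's adjusted p = 4.63e-04). Behind it stood 417 to 2066 reads per library. The gene lies at chr19:20373428-20390944 on the minus strand (GRCm38, GENCODE M21) and its longest coding transcript has 13 exons.

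Anxa3, a short-tailed annexin first described as an inhibitor of phospholipase A2, rose by a similar factor. The WT libraries held 136, 162 and 79.4 CPM and the CKO libraries 490.3, 401 and 543 CPM. WT 3 was the lowest library and CKO 2 was again the lowest of its group, but the groups stayed apart. The rise was 3.91-fold (2.67 to 5.74) with a log2 fold change of 1.97 (SE 0.25, limma's adjusted p = 0.00263). Anxa3 is at chr5:96793339-96845966 on the plus strand.

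Anxa8, an annexin with anticoagulant activity whose transcript is known from epithelia and hypertrophic cartilage, had the lowest mean level per length of the 9 in WT. Its level was 29.0, 25.5 and 36.3 CPM in WT and 112, 126 and 116 CPM in CKO. The CKO libraries lay close together, and the lowest of them was about 3 times the highest WT library. The rise was 3.84-fold (2.83 to 5.21), a log2 fold change of 1.94 (SE 0.20, limma's adjusted p = 9.01e-04), over 34 to 174 reads per library. The gene lies at chr14:34085981-34100571 on the plus strand. It overlaps a gene on the other strand, A630023A22Rik, which stood at 0.72 to 3.44 CPM in the same libraries.

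Anxa2 forms a heterotetramer with S100a10 at the plasma membrane and binds plasminogen and tissue plasminogen activator there. It stood at 2206, 2241 and 2018 CPM across WT against 4118, 3755 and 4267 CPM in CKO. The libraries of each group lay within a narrow range, and the groups were widely apart. The rise was 1.88-fold (1.53 to 2.31), a log2 fold change of 0.91 (SE 0.13, limma's adjusted p = 0.00505). With 2389 to 5988 reads per library, Anxa2 added more CPM to the annexin total than any other member. It lies at chr9:69453620-69491795 on the plus strand.

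Anxa7, also called synexin, which binds the calcium sensor sorcin, was the remaining gene that rose. Its level was 124, 137 and 105 CPM in WT and 227, 237 and 233 CPM in CKO. The CKO libraries were almost level, and here CKO 2 was the highest. The rise was 1.91-fold (1.49 to 2.45), a log2 fold change of 0.93 (SE 0.16, limma's adjusted p = 0.0102). This call rests on single libraries, since the adjusted p was 0.0517 without WT 1 and 0.0568 without CKO 3, with log2 fold changes of 0.95 and 0.93. Anxa7 lies at chr14:20455260-20480133 on the minus strand.

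The 5 genes that rose differed in the size of the change. The 95% intervals of the log2 fold changes began at 1.49 for Anxa1, at 1.42 for Anxa3 and above both for Anxa8, and ended at 1.21 for Anxa2 and 1.29 for Anxa7, so they did not overlap. The difference between the genes was not itself tested. Leaving out any 1 library kept Anxa1, Anxa2, Anxa3 and Anxa8 past the adjusted threshold.

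**Figure D2:**
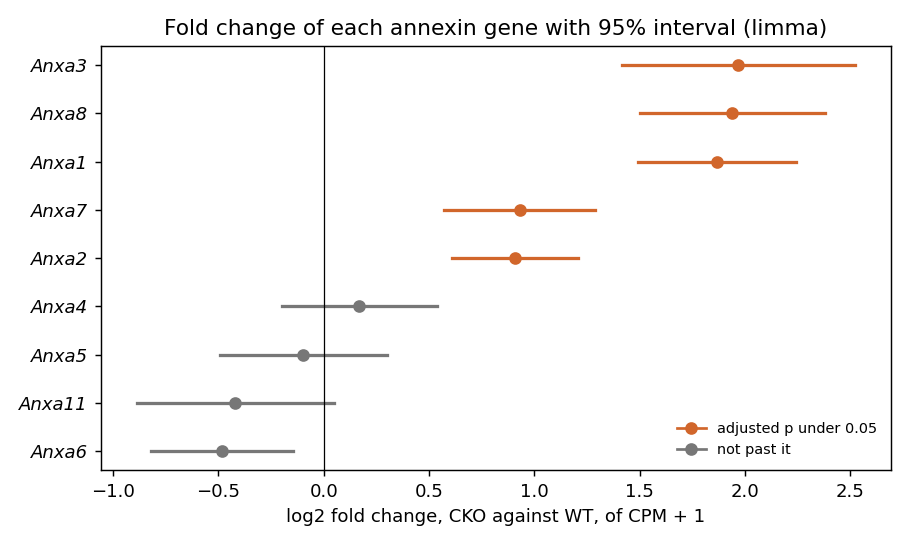
Log2 fold change of CKO over WT for each annexin gene (points) with its 95% interval from limma (bars), on the log2(CPM + 1) scale. The intervals of Anxa1, Anxa3 and Anxa8 lie above those of Anxa2 and Anxa7, and those of Anxa4, Anxa5 and Anxa11 cross 0.

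Anxa5, the annexin that coats phosphatidylserine and binds collagens and is a long-known component of matrix vesicles, did not pass the test. Its level was 1655, 1878 and 2637 CPM in WT and 1928, 1871 and 1861 CPM in CKO. The CKO libraries were close together and lay inside the WT range, which WT 3 widened. The log2 fold change was -0.10 (SE 0.18, 95% interval -0.49 to 0.30, limma's adjusted p = 0.801), and without WT 3 it was 0.097. Each library held 2147 to 3121 reads of the gene. Anxa5 lies at chr3:36448923-36475894 on the minus strand.

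Anxa6, also found in matrix vesicles, is the member with a duplicated core, and its longest coding transcript has 26 exons against 12 to 15 in the others. It stood at 204, 232 and 197 CPM across WT against 158, 144 and 149 CPM in CKO. Every CKO library was below every WT library. The log2 fold change was -0.48 (SE 0.15, 95% interval -0.82 to -0.14) with an unadjusted p of 0.00977 and limma's adjusted p = 0.0965, so the difference did not pass the threshold, and it passed under none of the 15 other settings. Anxa6 lies at chr11:54979108-55033445 on the minus strand.

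Anxa4, known from secretory epithelia, and Anxa11, which has a long N-terminal tail and binds S100a6 and the penta-EF-hand protein Pdcd6, also did not pass. Anxa4 was at 133, 149 and 133 CPM across WT against 160.2, 135 and 173 CPM in CKO, and the groups overlapped (log2 fold change 0.17, 95% interval -0.20 to 0.54, limma's adjusted p = 0.604). Anxa11 was at 95.7, 63.8 and 92.9 CPM across WT against 56.4, 69.3 and 59.8 CPM in CKO, with WT 2 inside the CKO range (-0.42, 95% interval -0.89 to 0.047, limma's adjusted p = 0.284). The Anxa11 value is uncertain because 2 pseudogenes, Gm2260 and Gm2274, are near-identical to it over at least 300 bases and Anxa11os overlaps it on the other strand. Genes that are not in the table also overlap Anxa1 (1500015L24Rik), Anxa2 (Gm16144) and Anxa4 (Gm44036) on the other strand and Anxa3 (Gm42603) on the same strand, and the share of their reads in these values is unknown. Whether counting used the strand is not given in the sources used here. Anxa4 lies at chr6:86736840-86793584 on the minus strand and Anxa11 at chr14:25842156-25886804 on the plus strand. Anxa7, Anxa8 and Anxa11 share chromosome 14, and of these Anxa7 and Anxa8 rose.

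The groups were apart for 6 of the 9 annexins (Anxa1, Anxa2, Anxa3, Anxa6, Anxa7 and Anxa8), against 27.7% of all genes tested. The exact two-sided permutation test gave p = 0.1 for each of these 6, which is the smallest value that 3 against 3 libraries allow. It gave 0.2 for Anxa4 and Anxa11 and 0.8 for Anxa5 in the same exact test. CKO 2 was the lowest CKO library for Anxa1, Anxa2, Anxa3, Anxa4 and Anxa6 and the highest for Anxa7, Anxa8 and Anxa11. Of the annexins outside the chosen symbols, Anxa9 had 2 reads over all libraries and Anxa10 had 1, both in CKO libraries. Both were under the floor of 3 reads in every library (2.06 to 2.60 CPM for 3 reads), were not tested and were not detectable as different at this depth. Anxa13 is not among the genes with values.

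The annexin pool as a whole was larger in the CKO libraries. The 9 genes summed to 4934, 5280 and 5650 CPM in WT and to 8671, 7803 and 8971 CPM in CKO, or 5288 ± 358 and 8482 ± 606 CPM (SD, n = 3 each). All CKO sums were above all WT sums. The makeup of the pool shifted with its size. Of the summed CPM, Anxa2 held 41.0% ± 4.67 in WT and 47.7% ± 0.348 in CKO, and Anxa5 held 38.6% ± 7.06 in WT and 22.3% ± 1.62 in CKO. With each gene scaled to the length of its exon union, Anxa5 held 55.8% ± 7.09 in WT and 36.2% ± 2.25 in CKO, and Anxa2 28.5% ± 4.63 and 36.8% ± 0.230. The share of Anxa1 in the CPM was 6.93% ± 0.616 in WT and 15.8% ± 1.98 in CKO. Because Anxa5 itself did not pass the test, its smaller share stands beside a larger total. These shares add up to a fixed sum and are given as a description.

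**Figure D3:**
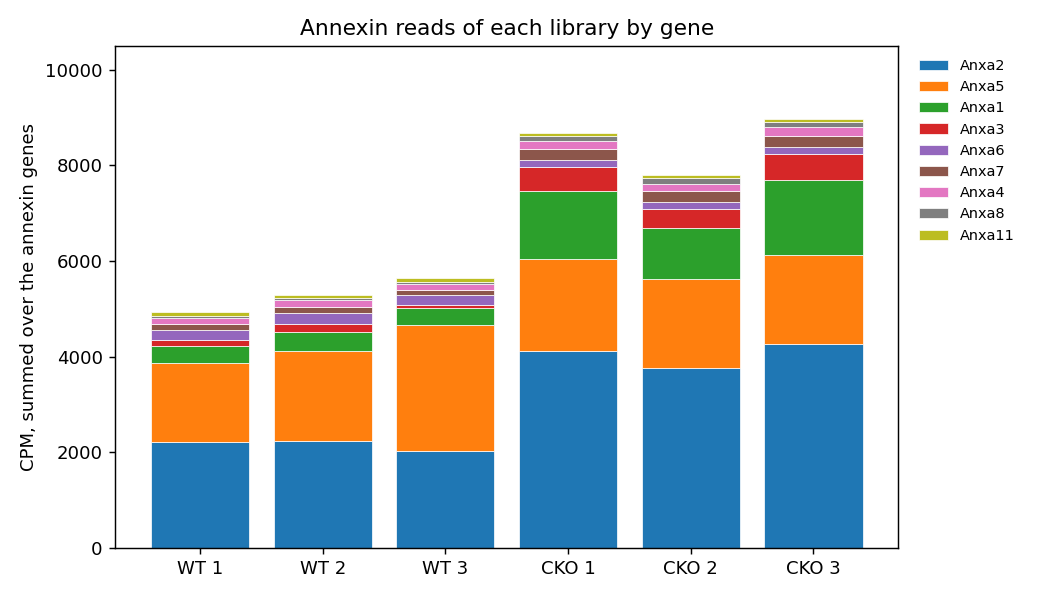
Summed CPM of the 9 annexin genes in each of the 6 libraries (vertical axis, from 0), with each bar split by gene. The CKO bars reach 7803 to 8971 CPM and the WT bars 4934 to 5650 CPM, Anxa2 and Anxa5 make up most of every bar, and the Anxa5 segment does not grow with the total.

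Levels of different genes were compared per length, as CPM per kb of the union of each gene's annotated exons. In WT the order was Anxa5 (1157), Anxa2 (578), Anxa1 (125), Anxa6 (72.0), Anxa3 (34.5), Anxa4 (29.8), Anxa7 (20.4), Anxa11 (20.3) and Anxa8 (16.1 CPM per kb). The libraries of neighbours overlapped for Anxa3 and Anxa4, for Anxa7 and Anxa11, and for Anxa11 and Anxa8. In CKO the order was Anxa2 (1085), Anxa5 (1062), Anxa1 (464), Anxa3 (131), Anxa8 (62.7), Anxa6 (51.4), Anxa7 (38.8), Anxa4 (33.6) and Anxa11 (15.0 CPM per kb), and the only neighbours that overlapped were Anxa2 and Anxa5. Anxa8 thus was the last of the 9 in WT and the fifth in CKO. The order within the top pair depends on the length used. Per kb of the longest coding transcript, Anxa2 stood at 1489 and Anxa5 at 1188 CPM per kb in WT, with overlapping libraries, and at 2797 and 1090 in CKO. On that length Anxa8 was the seventh in CKO and overlapped Anxa6. The per-length ratio of Anxa1 to Anxa5 within a library, on the exon union, was 0.113 ± 0.0271 in WT and 0.437 ± 0.0845 in CKO (SD, n = 3 each), with the groups apart.

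Most S100 proteins are small calcium-binding dimers, and several S100 proteins bind the N-terminal tail of an annexin. Of the 4 S100 genes listed as partners (S100a10, S100a11, S100a6 and S100a4), 3 rose and 0 fell with limma, and edgeR and DESeq2 gave the same counts. At an unadjusted p under 0.05, 4 were higher and 0 lower. With limma 3.18% of all 12155 genes rose and 2.60% fell, and 1886 more had an unadjusted p under 0.05 without passing. The same background holds for the lists below. S100a11, the partner of Anxa1, was at 591, 646 and 667 CPM across WT against 1536, 1070 and 1457 CPM in CKO. The groups were apart, CKO 2 was the lowest CKO library as it was for Anxa1, and the log2 fold change was 1.08 (SE 0.17, limma's adjusted p = 0.00554). S100a11 has 1 near-identical copy, S100a11-ps, that the counting could have split from it. The per-length ratio of Anxa1 to S100a11, on the exon union, was 0.101 ± 0.00745 in WT and 0.175 ± 0.0134 in CKO, with the groups apart, so Anxa1 was higher relative to S100a11 as well.

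S100a10, the partner of Anxa2, did not pass. It stood at 327, 385 and 523 CPM across WT against 500.0, 695 and 514 CPM in CKO, and WT 3 lay inside the CKO range. The log2 fold change was 0.48 (SE 0.20, limma's adjusted p = 0.207), next to 0.91 for Anxa2. The per-length ratio of Anxa2 to S100a10 was 1.78 ± 0.479 in WT and 2.38 ± 0.538 in CKO, and the groups overlapped. The ratios were not tested.

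S100a6, which binds Anxa2 and Anxa11, also rose. It was at 330, 405 and 480 CPM across WT against 1492, 2108 and 1473 CPM in CKO, with a log2 fold change of 2.06 (SE 0.19, limma's adjusted p = 5.87e-04). Here CKO 2 was the highest library. S100a4, which binds Anxa2, was at 23.2, 16.5 and 60.0 CPM across WT against 90.8, 149 and 115 CPM in CKO (log2 fold change 1.98, SE 0.40, limma's adjusted p = 0.0195). That call was lost without WT 1, without WT 2 and without CKO 3.

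**Figure D4:**
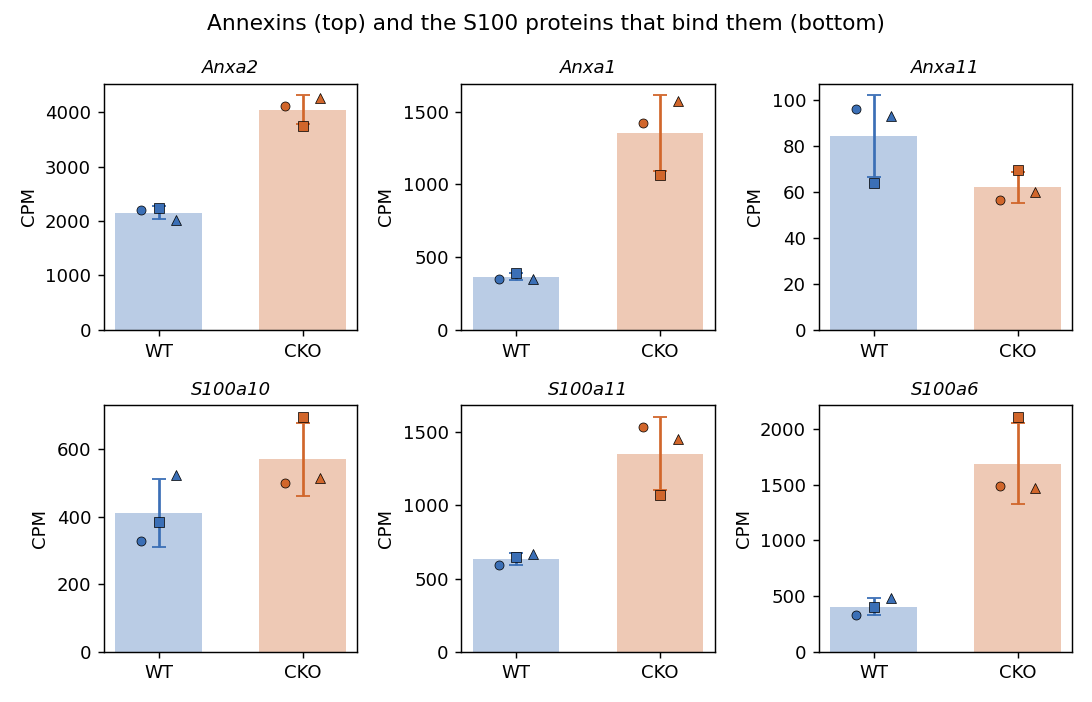
CPM (linear axes from 0) of Anxa2, Anxa1 and Anxa11 in the upper row and of S100a10, S100a11 and S100a6, whose proteins bind them, in the lower row, with bars for the group mean, error bars for the SD (n = 3) and circles, squares and triangles for libraries 1, 2 and 3. The CKO points lie above all WT points for Anxa2, Anxa1, S100a11 and S100a6, whereas those of S100a10 and Anxa11 overlap between groups.

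Plasminogen, which Anxa2 binds at the cell surface, is cleaved by the activators Plat and Plau, and Plau is held by the receptor Plaur. Of the 3 of these genes tested, 1 rose and 0 fell with limma and with DESeq2, and at an unadjusted p under 0.05 there were 2 higher and 0 lower. Plaur was at 27.5, 19.5 and 41.4 CPM across WT against 135, 208 and 140 CPM in CKO. Its groups were widely apart, with a log2 fold change of 2.44 (SE 0.28, limma's adjusted p = 0.00161). Plg is not among the genes with values. Of the formyl peptide receptors, through which secreted Anxa1 signals, Fpr1 had 3 reads in WT, all in WT 3, and 2 in CKO, all in CKO 2. It was at the floor in each library and was not tested, and Fpr2 and Fpr3 are not among the genes with values.

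The calcium-sensing and membrane-trafficking partners of Anxa7 and Anxa11 did not pass with limma. None of 4 (Pdcd6, Pdcd6ip, Sri and Tsg101) was called in either direction, 0 had an unadjusted p under 0.05, and edgeR and DESeq2 called 0. Pdcd6, which binds Anxa7 and Anxa11, was at 245, 237 and 199 CPM across WT against 238, 235 and 243 CPM in CKO, and the difference in log2 units was 0.076 (limma's adjusted p = 0.816). Sri (sorcin), which binds Anxa7, was at 117, 139 and 98.0 CPM across WT against 99.7, 113 and 121 CPM in CKO (log2 fold change -0.076, limma's adjusted p = 0.857). Both genes overlapped between groups, beside the rise of 0.93 for Anxa7.

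Genes that act with annexins in membrane repair (6 tested, dysferlin and calpains among them) and genes that move phosphatidylserine between the leaflets of the membrane (8 tested) gave 0 calls with limma and DESeq2, and with edgeR, which tested 4 and 7 of them. At an unadjusted p under 0.05 there were 0 of the repair genes and 1 of the phosphatidylserine genes, Plscr1. Dysferlin (Dysf) held only 1 to 8 reads per library and the calpain Capn1 only 1 to 4. Limma's intervals for their log2 fold changes were wide, from -0.42 to 2.32 for Dysf and from -1.23 to 1.17 for Capn1. The absence of a call therefore cannot decide whether Dysf or Capn1 changed. The scramblases and flippases had a median log2 fold change of -0.071. Pla2g4a, the cytosolic phospholipase A2 that annexins can inhibit, was higher by 0.96 on the log2 scale and did not pass (limma's adjusted p = 0.0799).

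Of 11 genes of matrix vesicles and mineralization, 2 rose and 0 fell with limma, with 5 higher and 1 lower (Smpd3) at an unadjusted p under 0.05. Over all genes tested, 3.18% rose and 2.60% fell with limma, and 1886 of 12155 had such a p without passing. DESeq2 called 2 higher and 1 lower, and edgeR 2 higher and 0 lower. Spp1 (osteopontin), a phosphoprotein of mineralized matrix, was at 1037, 1095 and 3769 CPM across WT against 11114, 11877 and 12045 CPM in CKO (log2 fold change 2.84, SE 0.40, limma's adjusted p = 0.00403). WT 3 was far above the other WT libraries but still well under all CKO libraries. Slc20a1, a phosphate transporter, was at 2.17, 4.50 and 6.76 CPM across WT against 16.5, 25.3 and 21.7 CPM in CKO. Its log2 fold change was 2.09 (SE 0.39, limma's adjusted p = 0.0144), and the call rests on 17 reads in WT and 84 in CKO and was lost without WT 1, without WT 2 and without CKO 3. Among the annexins classed with matrix vesicles, Anxa2 rose, and Anxa5 (log2 fold change -0.10) and Anxa6 (-0.48) did not pass. The groups overlapped for Anxa5 and were apart for Anxa6. Differences between these genes were not tested.

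Over all 37 partner genes tested, 6 rose and 0 fell with limma. At an unadjusted p under 0.05 the counts were 13 higher and 1 lower. Among all 12155 genes, 1886 had such a p in addition to the 703 past the adjusted threshold. For the partners edgeR called 6 higher and 0 lower, and DESeq2 called 6 higher and 1 lower. Of all genes, edgeR called 374 of 7704 higher, and DESeq2 called 344 of the 15793 with a p-value higher. Of all genes, 3.18% rose with limma. The partner lists were chosen with earlier results of these data known, so the shares are a description and not a test. The groups were apart for 11 of the 37, against 27.7% of all genes. The median log2 fold change of the partners was 0.41.

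**Figure D5:**
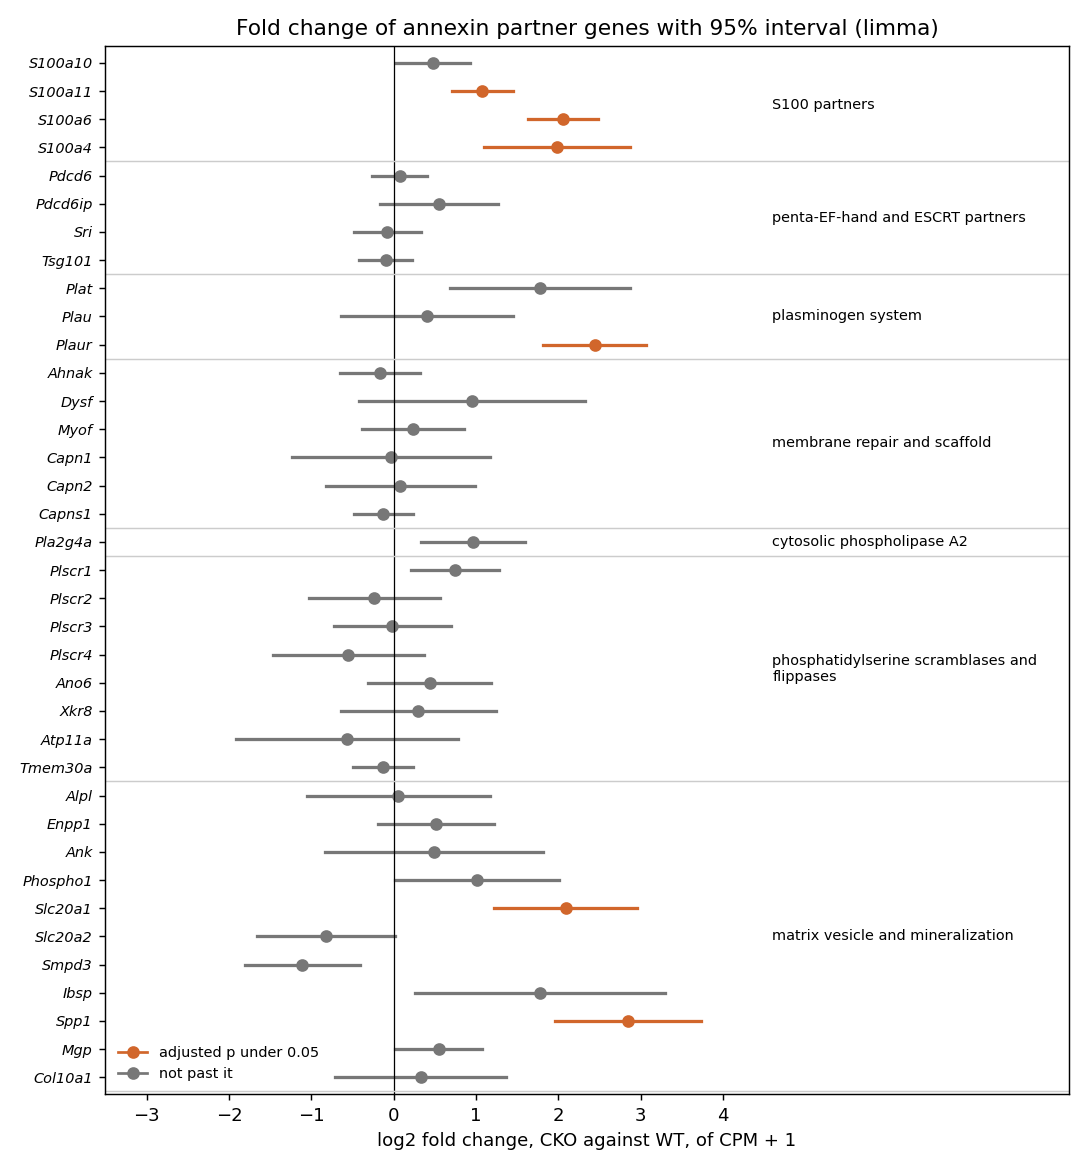
Log2 fold change of CKO over WT on the CPM + 1 scale (points) with 95% intervals from limma (bars) for the 37 tested partner genes, grouped by the kind of partner, with genes past the adjusted threshold in orange. The 6 orange genes, S100a11, S100a6, S100a4, Plaur, Slc20a1 and Spp1, all lie to the right of 0, and the intervals of all penta-EF-hand and membrane repair genes cross 0.

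Some marker genes of other cell types of the dissected tissue also differed between the groups. The epithelial markers, a list relevant to Anxa1, Anxa3 and Anxa8, which epithelia also express, summed to 33.8 to 68.3 CPM in WT and to 158 to 257 CPM in CKO. Perp supplied much of that sum, and without it the list stood at 49.3, 49.5 and 25.3 CPM in the WT libraries and 61.2, 112 and 63.3 CPM in the CKO libraries. Of 7 tested, 2 rose and 0 fell with limma, beside 3.18% and 2.60% of all genes. At an unadjusted p under 0.05 there were 4 higher and 0 lower, while edgeR and DESeq2 each called 2 higher and 0 lower. Perp, a desmosomal protein that is also a p53 target, was higher by 3.05 log2 units (limma's adjusted p = 6.54e-04), and the keratin Krt19 had 2.37 (limma's adjusted p = 0.0237), a call that was lost without WT 1, WT 3, CKO 1 or CKO 3, leaving 1. By sign alone 6 of the 7 were higher and 1, Trp63, was lower (log2 fold change -0.23, limma's adjusted p = 0.889). Krt1, Krt8, Dsp and Cldn7 were at or under 3 reads in every library. Epcam was at 0 in all WT libraries and in CKO 1, with 6 reads in CKO 2 and 1 in CKO 3, and was not tested. The epithelial sum was highest in CKO 2, at 257 CPM against 158 and 167 in the other CKO libraries, where Anxa8 was also the highest of its group and Anxa1 and Anxa3 were the lowest of theirs. Krt5, Krt14 and Cdh1 were on the list but are not among the 15803 genes with values.

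Of 6 macrophage markers tested, 1 rose, Cd68, a lysosomal protein (log2 fold change 2.74, limma's adjusted p = 0.00114). The list summed to 63.1 to 297 CPM in WT and to 179 to 202 CPM in CKO, and Aif1, C1qa and Ptprc were at the floor in all libraries. All 4 endothelial markers in the table were at the floor, and 1 of 6 neutrophil markers was abundant enough to be tested. Of 8 fibroblast and perichondrium markers, 2 were lower, Col1a2 by 1.09 and Dcn by 1.89 on the log2 scale.

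The hypertrophic chondrocyte list summed to 1341 to 4485 CPM in WT and to 12309 to 14403 CPM in CKO, and 1 of its 5 tested genes, Spp1, rose. Spp1 made up most of the sum, and without it the list stood at 304, 301 and 716 CPM in the WT libraries and 2219, 432 and 2358 CPM in the CKO libraries, so the groups overlapped. The osteoblast list was at 153 to 191 CPM across WT against 1031, 126 and 1104 CPM in CKO 1, 2 and 3, so CKO 2 did not share the level of its group. Of the annexins that rose, Anxa1, Anxa2 and Anxa3 were lowest of the CKO libraries in CKO 2, and Anxa7 and Anxa8 were highest there. Without CKO 2 the log2 fold changes were 2.03 for Anxa1, 0.96 for Anxa2, 2.09 for Anxa3, 0.92 for Anxa7 and 1.89 for Anxa8. The skeletal muscle list was highest in CKO 2 at 235 CPM, against 16.5 to 81.9 CPM in WT. Myog alone held 179 of the 235 CPM. The part of these cell types in the annexin levels was not tested.

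By its level over the 6 libraries, the gene most like Anxa1 was Txndc9, a thioredoxin domain protein, with a Pearson correlation of 0.999 on log2(CPM + 1) among 5022 genes averaging 20 CPM or more. It was followed by Anxa2 (0.995), Nif3l1 (0.995), Skp1a (0.994) and Faap20 (0.994). Among the other annexins, Anxa3 (0.964), Anxa7 (0.960) and Anxa8 (0.958) had high values, Anxa4 stood at 0.72, Anxa5 at -0.24, Anxa11 at -0.78 and Anxa6 at -0.90. All points share the difference between genotypes and the same 6 libraries, so these values describe likeness and were not tested.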

How the data were processed

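RNA-seq of growth plate cartilage was analysed in 6 libraries, 3 labelled WT and 3 labelled CKO. Per the labels, total RNA was isolated with TRIzol and a stranded mRNA kit was used for the libraries. The submitters' processing notes name cutadapt 2.5, HISAT2 and featureCounts 1.6.3. Their settings, the genome build and the annotation are not given in the sources used here. The authors deposited CPM per gene and library. Every value (100%, within 0.01 reads) was a whole multiple of that of 1 read, so reads were recovered. They came to 1153871 to 1454094 per library, and floors cover counting error only, since without molecular identifiers several reads may stem from 1 molecule.

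Genotypes were compared with limma 3.58.1 (R 4.3.3) on log2(CPM + 1), with a mean-variance trend, over the 12155 genes averaging 1 CPM or more, and p-values were Benjamini-Hochberg adjusted over all of them. Fold changes are on this scale, which understates changes of low genes. Single annexins were also tested with an exact permutation test. Alternatives were a pseudocount of 0.1, no filter, a filter of 5 CPM, TMM scaling, a replicate block, edgeR 4.0.16 (3 settings) and DESeq2 1.42.0 on recovered reads, and each library left out. The fits were also run on simulated counts with the same dispersion for all genes and no library effects beyond depth. Such counts do not model the dependence on single libraries, so that run does not test it. Positions are from GENCODE M21 (GRCm38), copies were sought with BLAST 2.17.0, and promoters are from RefSeq. The text names the annexins, Hnrnpk, partner genes past the adjusted threshold and direct partners, markers past it in lists that move with a member, and the 5 genes most like Anxa1. Pla2g4a, Plscr1, Smpd3, Dysf, Capn1, Myog, Epcam, Trp63 and markers at the floor were named after their values were seen. The members and lists were chosen with earlier results of these data known.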

Additional observations from a re-analysis of the deposited data

How the results depend on the processing

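Over 15 alternatives the annexins higher in CKO numbered 5, or 4 without WT 1 and without CKO 3, where Anxa7 was lost, and 0 were lower. Log2 fold changes ranged from 1.75 to 2.03 for Anxa1, 0.86 to 0.96 for Anxa2, 1.67 to 2.18 for Anxa3, 0.83 to 1.02 for Anxa7 and 1.83 to 2.07 for Anxa8. Anxa6 stayed between -0.53 and -0.41, with adjusted p from 0.0528 to 0.290. Anxa5 changed sign without WT 3, at 0.097, and ranged from -0.24 to 0.097 over the fits that leave out 1 library. By the criterion of the study 3 annexins passed, or 4 in 1 fit, without WT 2. The partner genes past the adjusted threshold numbered 4 to 9, against 6.

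Same-numbered WT and CKO libraries correlated at 0.038, -0.131 and -0.103 in their deviations from the group means. Pairs with different numbers ranged from -0.120 (WT 3 with CKO 1) to 0.164 (WT 3 with CKO 2). The deviations are from means of 3 libraries, and whether the replicate numbers pair the libraries was not tested. With the replicate block, 225 genes were higher and 160 lower, against 387 and 316, and no annexin call changed. With edgeR and no filter 526 were lower. Leaving out 1 library gave 123 to 692 higher and 79 to 606 lower genes, and 1 to 2 epithelial markers. The cause was not tested. With 3 libraries a group at this depth, small differences such as those of Anxa4 and Anxa11 cannot be resolved.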
